A study of Mus musculus with 54 samples.

Results

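Macrophages that had been treated with interleukin-4 (IL-4) but never transfected, called M2-like, were compared with untreated and untransfected macrophages, called M0. The comparison took every library of the reprogramming experiment titled M2 without mock or siPool, 3 libraries, and every library titled M0 without mock, 3 libraries, which makes 6 of the 54 libraries in the series. All were peritoneal exudate cells of C57BL/6 mice aged 8 to 20 weeks, drawn into the peritoneum by thioglycolate, collected 4 days after its injection and cultured as adherent cells. M2-like cells received IL-4 at 10 ng/ml for 24 h, and M0 cells received no polarizing cytokine. By the study's methods, untransfected profiles were taken 24 h after polarization and those of the reprogramming experiment 48 h after transfection, in culture without IL-4. They do not say which time holds for the untransfected libraries of the reprogramming experiment, or whether IL-4 was still present in them. A section of the methods on RNA extraction and PCR names 3 biological replicates of M0 and M2-like macrophages. Neither it nor the labels say that the 3 replicates of a group of this experiment came from separate mice. The p-values of this experiment therefore measure the spread between these libraries, which need not be that between animals. That spread, a chi-square of 5.43 to 13.3 per gene between replicates, was larger than the 1.07 to 1.10 between the technical replicates of another experiment in the series.

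The libraries were sequenced as paired ends of 150 nt and hold 13582919 to 16365521 counted reads each. Levels are given as CPM, the reads of a gene scaled to the size of its library after TMM scaling of the libraries, a change is the log2 fold change of M2-like over M0 with its standard error (SE), and a gene was called when its adjusted p in edgeR's quasi-likelihood test was under 0.05. Macrophage identity was checked with 12 marker genes, among them Adgre1, which encodes F4/80, and Csf1r, the receptor for colony-stimulating factor 1. Their summed level was 17752 to 18125 CPM in M0 and 17316 to 19689 CPM in M2-like libraries, and all 12 passed the filter on low counts. Among them Mertk was higher in M2-like cells (log2 fold change 0.75), whereas Maf (-0.60) and the endotoxin co-receptor gene Cd14 (-0.66) were lower.

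IL-4 binds a receptor built from the IL-4 receptor alpha chain and a partner chain, which signals through Janus kinases to the transcription factor STAT6. In mouse macrophages this pathway is known to induce a set of genes that mark alternative activation, among them the secreted lectin-like protein gene Chil3 (Ym1), the cysteine-rich secreted protein gene Retnla (Fizz1), the arginase gene Arg1 and the mannose receptor gene Mrc1. Alternatively activated macrophages are also known for fatty acid oxidation, for uptake of lipids and dying cells, and for remodelling of the extracellular matrix.

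Of 14172 genes tested, 2820 (19.9%) were called, 1517 (10.7%) higher and 1303 (9.19%) lower in M2-like than in M0 macrophages. The shares of 10.7% and 9.19% are the background for each count of higher and lower list members in this contrast. Genes that were called and differed at least 2-fold numbered 514, 3.63% of the genes tested, with 310 higher and 204 lower. All 3 M2-like libraries were above all 3 M0 libraries in 17.8% of the genes tested and below them in 18%. Genes named below for the size of their change were picked from called genes without overlap. In these genes the lack of overlap follows from that choice and adds no support. The median log2 fold change over all genes tested was -0.0049. The 10 largest increases of well-expressed genes were those of Chil3, Retnla, Scd1, Scd2, Mgl2, Ksr2, Mgll, Slc6a12, Vsig8 and Abca1. The 10 largest decreases were those of Marco, Itgb7, Oas3, Itgal, Id3, Soat2, Rtp4, Prg4, Clec4e and Rasgrp4. Lipid genes thus stood beside the lectin and secreted-protein genes of alternative activation among the increases, and 2 integrin chains, 2 scavenger or pattern-recognition receptors and 2 interferon-inducible genes among the decreases.

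Alternative activation genes separated into a group that was higher in M2-like cells and a group that was not. Of 30 listed genes, 29 were in the files and 25 passed the filter on low counts, and 11 of these 25 were higher and 0 lower (median log2 fold change 0.32, against 10.7% higher and a median of -0.0049 over all genes tested). The 4 genes that did not pass the filter were Ccl17, Cd209d, Cdh1 and Chil4, of which Cd209d had 0 reads in all 6 libraries. With any 1 of the 6 libraries left out, 9 to 11 members were called higher. Where a list below has 0 calls in a direction, edgeR gave at most 2 of its tested members there at an unadjusted p under 0.05, and DESeq2 called at most 1.

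Chil3 had the largest increase of these genes. Its level was 9.52, 7.94 and 11.8 CPM in the 3 M0 libraries and 1007, 959 and 875 CPM in the 3 M2-like libraries (log2 fold change 6.60 ± 0.21 SE, adjusted p = 3.72e-21), a 97.3-fold difference with no overlap. Chil3 and its neighbour Chil4 are near-identical copies, and how reads that match both were counted is not given in the sources used here, although Chil4 itself was at 0, 0 and 0 CPM in M0 and at 0.143, 0.258 and 0.132 CPM in M2-like libraries. Retnla was at 10.03, 12.5 and 10.9 CPM in M0 and at 256, 441 and 222 CPM in M2-like libraries (log2 fold change 4.78 ± 0.57 SE, adjusted p = 1.77e-07). All 3 M2-like libraries were far above the M0 libraries, with replicate 2 the highest.

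Both genes, together with Pdcd1lg2, carry a STAT-type palindrome close to the start of transcription. STAT6 is the factor through which IL-4 signals, and the 3 promoters were picked for display from the called increases because they hold a match. They are RefSeq sequences of the GRCm38.p6 build, 250 bases before to 50 bases after the start, on the gene's strand, with the palindrome in capitals.
Chil3 (chr3:106167515-106167814, minus strand): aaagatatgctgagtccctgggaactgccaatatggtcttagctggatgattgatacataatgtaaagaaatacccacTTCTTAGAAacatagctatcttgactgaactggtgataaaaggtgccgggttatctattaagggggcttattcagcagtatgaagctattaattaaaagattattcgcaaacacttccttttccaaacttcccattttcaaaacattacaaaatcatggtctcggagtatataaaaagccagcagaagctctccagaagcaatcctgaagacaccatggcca
Retnla (chr16:48842359-48842658, plus strand): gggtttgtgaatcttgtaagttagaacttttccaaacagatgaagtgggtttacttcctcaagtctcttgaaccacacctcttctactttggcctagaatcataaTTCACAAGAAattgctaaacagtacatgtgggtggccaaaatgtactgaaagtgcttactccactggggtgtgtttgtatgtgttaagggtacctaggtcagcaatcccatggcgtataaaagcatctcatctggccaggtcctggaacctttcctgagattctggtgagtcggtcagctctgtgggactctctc
Pdcd1lg2 (chr19:29410669-29410968, plus strand): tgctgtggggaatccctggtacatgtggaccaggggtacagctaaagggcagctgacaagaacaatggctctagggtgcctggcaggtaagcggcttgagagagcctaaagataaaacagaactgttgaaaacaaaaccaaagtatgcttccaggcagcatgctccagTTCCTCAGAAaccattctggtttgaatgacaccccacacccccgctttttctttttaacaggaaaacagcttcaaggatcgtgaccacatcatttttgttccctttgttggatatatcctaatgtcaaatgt
The capitals run from TTC to GAA with 3 bases of any kind between them in Chil3 and with 4 in Retnla and Pdcd1lg2. The pattern with 4 bases between was taken as the STAT6 type, and the Chil3 promoter held only that with 3. The promoter of Mgl2, a called gene with a larger increase than Pdcd1lg2, held neither pattern. Both patterns read the same on the other strand, and the patterns cannot both match from the same first base. They begin 172, 145 and 82 bases before the start. The pattern with 4 bases between was present in 3 of the 11 called members (Clec7a, Pdcd1lg2 and Retnla), in 1 of 9 members that were not called and had a promoter in the table (Ccl17), and in 6.95% of all 32851 promoter windows. The pattern with 3 bases between was present in 1 of the 11 called members (Chil3), in 2 of the 9 others and in 8.3% of all windows. A match is a run of letters and does not show that a factor was bound.

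Lectin and receptor genes followed Chil3 and Retnla at smaller size. Mgl2, which encodes a galactose-type C-type lectin, was at 1.32, 2.61 and 0.614 CPM in M0 and 12.1, 11.0 and 12.3 CPM in M2-like libraries (log2 fold change 2.93 ± 0.30 SE, adjusted p = 1.35e-08). Mrc1 was at 154, 144 and 121 CPM in M0 and 348, 365 and 287 CPM in M2-like libraries (log2 fold change 1.25 ± 0.14 SE, adjusted p = 6.46e-08). Clec7a, the beta-glucan receptor Dectin-1, was at 579.7, 649.9 and 583 CPM in M0 and 1275, 1092 and 1316 CPM in M2-like libraries (log2 fold change 1.02 ± 0.08 SE, adjusted p = 1.60e-11). In none of these 3 genes did the groups overlap. Pdcd1lg2, which encodes the PD-1 ligand PD-L2, rose by 2.50 and Flt1, a receptor of vascular endothelial growth factor, by 1.72 on the log2 scale, both from M0 levels under 2 CPM. Ptgs1, the cyclooxygenase-1 gene (0.96), Mmp12, the macrophage elastase gene (0.60), Matk, a kinase gene (0.43), and Egr2, a transcription factor gene (0.32), completed the 11. Leaving out 1 library ended the calls of Matk (adjusted p = 0.0515 to 0.121 without M0 replicate 1 or 2 or M2-like replicate 3) and Egr2 (adjusted p = 0.0668 to 0.155 without M0 replicate 1, 2 or 3 or M2-like replicate 2 or 3). The log2 fold change became 3.61 for Mgl2 without M0 replicate 2 and 2.40 for Flt1 without M0 replicate 1.

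**Figure D1:**
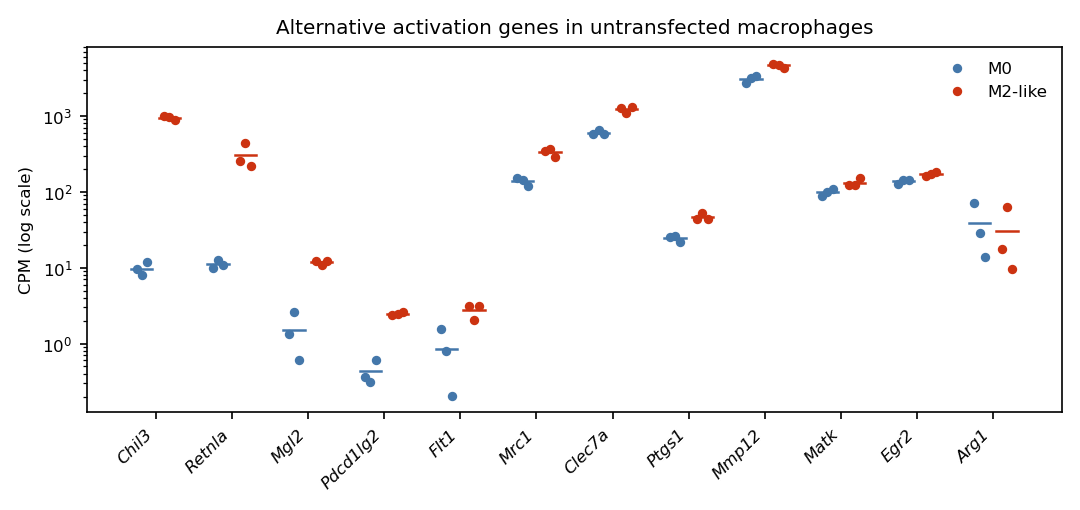
CPM on a log axis of the 11 alternative activation genes called higher, and of Arg1, in 3 M0 libraries (blue) and 3 M2-like libraries (red), with points for libraries and short lines for group means. Chil3 and Retnla show the widest gaps, 6.60 and 4.78 on the log2 scale, whereas the Arg1 points of both groups are intermixed.

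Arg1, the best-known of these markers, did not separate the groups. It was at 72.2, 28.7 and 13.8 CPM in M0 and at 17.5, 64.1 and 9.59 CPM in M2-like libraries (log2 fold change -0.32 ± 0.69 SE, adjusted p = 0.799). The groups overlapped, the replicates of each were spread widely, and the sign of the difference turned when M0 replicate 1 or M2-like replicate 3 was left out (log2 fold change 0.51 and 0.11). Slc7a2, which imports arginine, was 0.40 (adjusted p = 0.110), and Irf4, a transcription factor that IL-4 is known to induce, was 0.07 (adjusted p = 0.860). The chemokine genes Ccl22 and Ccl24 were under 2 CPM in all 6 libraries with log2 fold changes of -0.42 and -1.14, and the lectin gene Clec10a was at -0.45 (adjusted p = 0.131).

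Genes of the receptor and of the signalling chain were called at a share near that of all genes. Of 18 listed genes of the IL-4 receptor, Janus kinases, STAT factors and SOCS inhibitors, all tested, 1 was higher and 2 were lower, against 10.7% and 9.19% of all genes tested (median log2 fold change 0.07). The increase was that of Cish, a STAT-induced feedback inhibitor, from 0.0732, 0.0620 and 0.136 CPM in M0 to 0.358, 0.709 and 0.595 CPM in M2-like libraries (log2 fold change 2.53 ± 0.65 SE, adjusted p = 0.00552). Each of these levels was under 1 CPM, so that the call rests on few reads. The decreases were those of Il4ra, the receptor's alpha chain, and Il2rg, the common gamma chain. Il4ra was at 60.6, 52.9 and 56.3 CPM in M0 and 43.1, 52.2 and 45.8 CPM in M2-like libraries (log2 fold change -0.27 ± 0.09 SE, adjusted p = 0.0452), and Il2rg was at 47.8, 53.5 and 37.7 CPM and 35.6, 36.3 and 35.0 CPM (log2 fold change -0.38 ± 0.13 SE, adjusted p = 0.0375). Both differences were small, with no overlap of the groups. Socs1 was at 1.02 (adjusted p = 0.150), Stat6 at -0.06 (adjusted p = 0.683) and Jak1 at 0.11 (adjusted p = 0.106) on the log2 scale. Single libraries decided the calls of Il4ra (adjusted p = 0.0910 to 0.195 without M0 replicate 1 or 3 or M2-like replicate 1 or 3) and Il2rg (adjusted p = 0.0754 to 0.207 without M0 replicate 1 or 2 or M2-like replicate 1, 2 or 3).

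The 4 genes E2f1, Myc, Pparg and Stat6 are the targets of the siRNA pools used elsewhere in the experiment, and the cells here received no siRNA. Pparg, a nuclear receptor for fatty acids, was at 80.1, 79.8 and 79.1 CPM in M0 and 119.5, 111 and 115 CPM in M2-like libraries (log2 fold change 0.53 ± 0.08 SE, adjusted p = 1.35e-05). Myc, a growth regulator, was at 14.9, 17.6 and 16.9 CPM in M0 and 20.1, 23.2 and 22.6 CPM in M2-like libraries (log2 fold change 0.41 ± 0.15 SE, adjusted p = 0.0489). In both genes every M2-like library was above every M0 library. E2f1, a cell cycle factor, differed by 0.08 (adjusted p = 0.638), and Stat6 by the value above. In each of these the groups overlapped. Without 1 of the libraries, edgeR lost the call of Myc (adjusted p = 0.0525 to 0.176 with each of the 6 libraries left out in turn).

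Genes that make cholesterol and fatty acids were higher in M2-like cells almost throughout. All 26 listed genes were tested, and 21 were higher and 0 lower (median log2 fold change 0.62). Between 19 and 22 were called higher when any 1 of the 6 libraries was left out. Scd1, a stearoyl-CoA desaturase that puts a double bond into fatty acids, was at 5.34, 7.88 and 5.25 CPM in M0 and 61.5, 65.9 and 60.2 CPM in M2-like libraries (log2 fold change 3.33 ± 0.24 SE, adjusted p = 5.20e-12). Its paralog Scd2 was at 43.6, 46.8 and 42.0 CPM in M0 and 334, 419.6 and 391 CPM in M2-like libraries (log2 fold change 3.11 ± 0.24 SE, adjusted p = 4.20e-11). Fasn, the fatty acid synthase gene, was at 44.1, 39.9 and 37.6 CPM in M0 and 114, 153 and 147 CPM in M2-like libraries (log2 fold change 1.77 ± 0.17 SE, adjusted p = 3.69e-09). The groups were apart in all 3 genes, by at least 2-fold between the nearest libraries. The desaturase genes Fads2 (2.55) and Fads1 (0.74) rose as well.

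Genes of the sterol branch rose by smaller amounts. Log2 fold changes were 0.58 for squalene epoxidase (Sqle) and 0.78 for lanosterol demethylase (Cyp51). Lss, the lanosterol synthase gene, was at 34.1, 32.6 and 37.0 CPM in M0 and 55.4, 63.7 and 65.6 CPM in M2-like libraries (log2 fold change 0.83 ± 0.12 SE, adjusted p = 2.44e-06). Insig1, which holds back the sterol-sensing factors, rose by 0.68, and Srebf1, which encodes a factor that activates lipid synthesis genes, by 0.51. The groups overlapped in none of the genes named here.

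In the list of cholesterol export genes the calls were increases too. Of 11 tested genes of the LXR and efflux list, 6 were higher and 0 lower (median log2 fold change 0.29). Abca1, a transporter that hands cholesterol to apolipoproteins, was at 117, 120.2 and 90.4 CPM in M0 and 504, 589.9 and 412 CPM in M2-like libraries (log2 fold change 2.202 ± 0.17 SE, adjusted p = 2.89e-11). Abcg1, which exports cholesterol to lipoprotein particles, was at 218, 216 and 211 CPM in M0 and 468, 469 and 498 CPM in M2-like libraries (log2 fold change 1.15 ± 0.09 SE, adjusted p = 6.34e-11). Neither gene's groups overlapped. Lpcat3, a phospholipid-remodelling enzyme (0.66), Mylip, a ubiquitin ligase (0.44), Nr1h3, the receptor LXR alpha (0.37), and Soat1, which esterifies cholesterol (0.29), were also higher. Soat2, the other cholesterol esterification enzyme and not in the list, was lower, at 11.3, 10.2 and 11.5 CPM in M0 and 2.93, 2.96 and 0.860 CPM in M2-like libraries (log2 fold change -2.29 ± 0.59 SE, adjusted p = 0.00598). Omitting a library cost the call of Nr1h3 (adjusted p = 0.0524 to 0.127 without M0 replicate 1 or 2 or M2-like replicate 2 or 3).

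Some uptake, storage and oxidation genes of fatty acids rose, mostly by smaller amounts. Of 17 tested genes of the PPAR, uptake and storage list, 7 were higher (41.2%) and 0 lower (median 0.29). Of 17 tested genes of beta-oxidation, 6 were higher (35.3%) and 0 lower (median 0.14). Slc27a6, a fatty acid transport protein, was at 13.4, 13.3 and 13.7 CPM in M0 and 31.0, 27.0 and 29.9 CPM in M2-like libraries (log2 fold change 1.12 ± 0.14 SE, adjusted p = 7.89e-07). Cd36, a fatty acid and oxidized lipoprotein receptor, rose by 0.58, and the lipid chaperone gene Fabp4 by 0.55. Hadha and Hadhb, which encode the 2 chains of the mitochondrial trifunctional protein, rose by 0.49 and 0.59. The number of beta-oxidation genes called fell from 6 to 3 without M0 replicate 1, without M2-like replicate 1 or without M2-like replicate 3. Mgll, which encodes the lipase that splits monoacylglycerol, stood outside the lists and was at 54.0, 54.3 and 47.3 CPM in M0 and 290.2, 241 and 307 CPM in M2-like libraries (log2 fold change 2.43 ± 0.14 SE, adjusted p = 2.99e-14). With a library removed, edgeR no longer made the call of Hadhb (adjusted p = 0.0720 without M0 replicate 1).

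**Figure D2:**
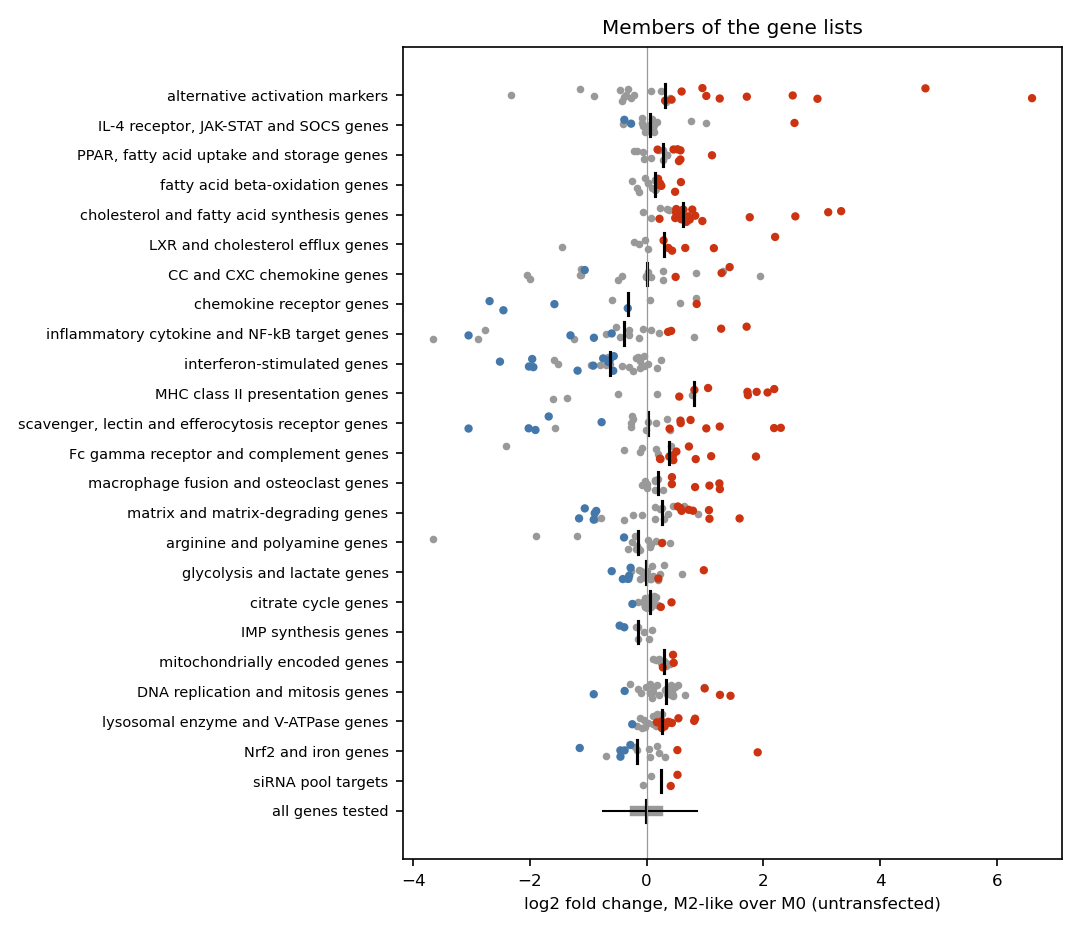
Log2 fold changes of M2-like over M0 for the tested members of each gene list (points, spread vertically at random), with members called higher in red, called lower in blue and not called in grey. Black ticks are medians, and the bar and line at the bottom give the middle 50% and 90% of all genes tested. The lists are those of pathways, without the cell type markers. The ticks of cholesterol and fatty acid synthesis (0.62) and MHC class II genes (0.82) lie farthest to the right, and that of the interferon-stimulated genes (-0.63) farthest to the left.

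Genes of antigen presentation by MHC class II were higher, from the activator to the peptide-loading genes. Of 13 tested genes, 8 were higher and 0 lower (median log2 fold change 0.82). H2-Aa, which encodes a class II alpha chain, was at 118, 121 and 82.8 CPM in M0 and 497, 460.4 and 506 CPM in M2-like libraries (log2 fold change 2.19 ± 0.13 SE, adjusted p = 9.40e-14). Cd74, the invariant chain that guides class II molecules, was at 396, 409 and 248 CPM in M0 and 1402, 1434 and 1597 CPM in M2-like libraries (log2 fold change 2.07 ± 0.13 SE, adjusted p = 9.40e-14). Ciita, the class II transactivator, was at 9.59, 12.2 and 7.57 CPM in M0 and 31.1, 39.3 and 27.6 CPM in M2-like libraries (log2 fold change 1.74 ± 0.15 SE, adjusted p = 2.77e-10). In each of these genes the M2-like libraries were all above the M0 libraries. H2-Eb1 (1.89), H2-Ab1 (1.73), H2-DMa (1.05), H2-DMb1 (0.82) and the lysosomal reductase gene Ifi30 (0.56) made up the remainder, and H2 genes share sequence with each other, so that reads may be split among them. In bulk RNA, fewer cells of a type and less RNA per cell cannot be told apart, which holds for this and every other group here.

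Many Fc receptor and complement genes were higher as well. Of 17 tested genes, 10 were higher (58.8%) and 0 lower (median 0.39). Fcgr4, an activating receptor for IgG, was at 36.5, 27.9 and 24.9 CPM in M0 and 111, 90.2 and 125 CPM in M2-like libraries (log2 fold change 1.87 ± 0.15 SE, adjusted p = 4.37e-11). Itgax, the alpha chain of complement receptor 4 (CD11c), was at 574, 704 and 775 CPM in M0 and 1321, 1506 and 1593 CPM in M2-like libraries (log2 fold change 1.11 ± 0.16 SE, adjusted p = 5.79e-06). Neither gene's groups overlapped. The other calls were the properdin gene Cfp (0.84), the C1q chains C1qb (0.73) and C1qc (0.46), the receptors Fcgr2b (0.51), Fcgr3 (0.39), C5ar1 (0.45) and C3ar1 (0.23), and the kinase gene Syk (0.24), which acts below Fc receptors. Leaving out 1 library ended the calls of C1qc (adjusted p = 0.0656 to 0.193 without M0 replicate 2 or 3 or M2-like replicate 2) and C3ar1 (adjusted p = 0.0566 to 0.136 without M0 replicate 1 or 3 or M2-like replicate 1, 2 or 3).

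Receptors for particles and dying cells moved in both directions. Of 23 tested scavenger, lectin and efferocytosis receptor genes, 8 were higher and 5 lower (34.8% and 21.7%, median 0.03). Stab2, a scavenger receptor for hyaluronan, was at 1.68, 1.49 and 1.84 CPM in M0 and 7.30, 8.38 and 7.14 CPM in M2-like libraries (log2 fold change 2.18 ± 0.27 SE, adjusted p = 4.45e-07), whereas its paralog Stab1 was at 212, 201 and 227 CPM in M0 and 37.6, 80.2 and 52.8 CPM in M2-like libraries (log2 fold change -1.90 ± 0.25 SE, adjusted p = 1.26e-06). The pair moved in opposite directions with no overlap in either gene. Mertk, which recognizes apoptotic cells through bridging proteins, rose by 0.75, and Pros1, which encodes such a bridging protein, by 0.39. Marco, a scavenger receptor for bacteria and particles, showed the largest decrease of all well-expressed genes, from 65.2, 70.7 and 38.5 CPM in M0 to 6.15, 9.73 and 5.09 CPM in M2-like libraries (log2 fold change -3.05 ± 0.50 SE, adjusted p = 3.22e-05). The neighbouring lectin receptor genes Clec4e (Mincle, -2.02), Clec4n (Dectin-2, -1.68) and Clec4d (-0.77), which sense microbial glycolipids and mannans, were lower, while the lectin gene Clec7a was higher as given above. Single libraries decided the call of Pros1 (adjusted p = 0.0923 without M0 replicate 3).

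Calls among lysosome and fusion genes were mostly increases. Of 25 lysosomal enzyme and proton pump genes, 13 were higher and 1 was lower (52% and 4%, median 0.26), and without M0 replicate 2 the number higher was 7. Atp6v0d2, a proton pump subunit also known for its part in macrophage fusion, was at 928, 1037 and 939 CPM in M0 and 1809.6, 1653 and 1701 CPM in M2-like libraries (log2 fold change 0.83 ± 0.09 SE, adjusted p = 5.45e-08). Ctsl, the protease cathepsin L, was at 3135, 3309 and 3531 CPM in M0 and 5809, 6185 and 5562 CPM in M2-like libraries (log2 fold change 0.82 ± 0.11 SE, adjusted p = 1.84e-06). Neither gene's groups overlapped, and the single decrease was that of the protective protein gene Ctsa (-0.25). Of 15 tested fusion and osteoclast genes, 6 were higher (40%) and 0 lower (median 0.20). Acp5, the tartrate-resistant acid phosphatase (1.26), and Itgb3, the integrin beta 3 chain (1.25), led them. Without 1 of the libraries, edgeR lost the call of Ctsa (adjusted p = 0.0645 to 0.172 without M0 replicate 1, 2 or 3 or M2-like replicate 1 or 2).

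Tfrc, the transferrin receptor through which cells take up iron, was at 120.3, 133 and 111 CPM in M0 and 469, 468 and 424 CPM in M2-like libraries (log2 fold change 1.90 ± 0.09 SE, adjusted p = 9.75e-17). The list of Nrf2 target and iron genes as a whole held 2 higher and 5 lower genes among 15 tested (13.3% and 33.3%, median -0.17). Fth1, the ferritin heavy chain that stores iron, rose by 0.53. The decreases were in glutathione and redox genes, with Gclm, a subunit of the enzyme that starts glutathione synthesis, at 52.3, 64.3 and 71.5 CPM in M0 and 23.9, 28.9 and 32.2 CPM in M2-like libraries (log2 fold change -1.15 ± 0.14 SE, adjusted p = 2.70e-07), and its partner Gclc at a log2 fold change of -0.45. Blvrb, Srxn1 and Txnrd1 fell by 0.45, 0.38 and 0.28 on the log2 scale. The number of lower genes was 2 rather than 5 without M0 replicate 3 or without M2-like replicate 1. Omitting a library cost the calls of Blvrb (adjusted p = 0.0640 to 0.132 without M0 replicate 3 or M2-like replicate 1 or 2), Srxn1 (adjusted p = 0.0561 to 0.142 without M0 replicate 3 or M2-like replicate 1) and Txnrd1 (adjusted p = 0.0712 to 0.0914 without M0 replicate 3 or M2-like replicate 1).

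Genes of the extracellular matrix were split. Of 27 tested genes, 8 were higher and 5 lower (29.6% and 18.5%, median 0.26), and without M2-like replicate 2 the count was 5 higher and 8 lower. Mmp19, a matrix metalloproteinase, was at 44.9, 51.9 and 55.5 CPM in M0 and 145, 161 and 153 CPM in M2-like libraries (log2 fold change 1.59 ± 0.12 SE, adjusted p = 1.00e-11). Mmp14, a membrane-bound metalloproteinase, was at 97.3, 99.6 and 71.3 CPM in M0 and 30.1, 51.8 and 38.2 CPM in M2-like libraries (log2 fold change -1.16 ± 0.21 SE, adjusted p = 1.42e-04). The groups were apart in both genes, in opposite directions.

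The lower genes included many that interferon induces. Of 30 tested genes, 11 were lower and 0 higher (median log2 fold change -0.63, against 9.19% lower over all genes tested), and 8 to 11 were lower when 1 library was left out. Irf7, the factor that amplifies interferon production, was at 62.7, 23.6 and 20.4 CPM in M0 and 10.3, 8.31 and 7.67 CPM in M2-like libraries (log2 fold change -2.02 ± 0.38 SE, adjusted p = 2.41e-04). Oas3, an antiviral enzyme that makes oligoadenylates, was at 83.0, 52.6 and 48.6 CPM in M0 and 12.8, 10.7 and 8.80 CPM in M2-like libraries (log2 fold change -2.51 ± 0.25 SE, adjusted p = 5.80e-09). The groups did not overlap in either gene, and M0 replicate 1 was the highest of the M0 libraries in both. Rtp4, an interferon-inducible gene outside the list, showed the same order, with 40.6, 17.99 and 17.3 CPM in M0 and 4.86, 5.74 and 4.89 CPM in M2-like libraries (log2 fold change -2.28 ± 0.31 SE, adjusted p = 2.35e-06). Oas2 (-1.96), Mx2 (-1.94), Usp18 (-1.18) and Oasl2 (-0.91) followed, and the signalling factors Stat2 (-0.63) and Irf9 (-0.56) were lower as well. Oas1a (-0.74) and Oas1g (-0.65), also called, are close copies whose reads may be shared. With a library removed, edgeR no longer made the calls of Mx2 (adjusted p = 0.0537 to 0.141 without M0 replicate 1 or 3 or M2-like replicate 1 or 3) and Oas1g (adjusted p = 0.0876 to 0.342 without M0 replicate 1 or M2-like replicate 1 or 3). The log2 fold change became -1.33 for Irf7 without M0 replicate 1.

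The Oas3 promoter is shown for its interferon-stimulated response element core, GAAA, 2 bases of any kind and GAAA again, in capitals (RefSeq, GRCm38.p6, gene strand, 250 bases before to 50 bases after the start).
Oas3 (chr5:120777610-120777909, minus strand): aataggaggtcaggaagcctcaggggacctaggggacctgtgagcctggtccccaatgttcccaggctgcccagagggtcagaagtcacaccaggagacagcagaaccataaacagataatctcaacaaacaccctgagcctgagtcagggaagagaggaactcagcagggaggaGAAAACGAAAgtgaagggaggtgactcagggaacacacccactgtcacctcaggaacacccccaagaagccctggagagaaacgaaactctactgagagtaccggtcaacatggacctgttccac
The match begins 75 bases before the start. Searched on both strands, the core was present in 3.44% of all 32851 windows, in 4 of 7 called interferon-stimulated genes with a promoter in the table (Oas1a, Oas1g, Oas3 and Stat2) and in 11 of 17 that were not called. The palindrome with 4 bases between TTC and GAA, shown above for increases, was present in 4 of these 7 lower genes too (Irf9, Oas1a, Oas1g and Stat2) and in 1 of the 17 that were not called. The core and the STAT-type palindromes both require GAA, or TTC on the other strand. The same letters can belong to both, so the 2 kinds of match are not independent.

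The 10 largest decreases included genes outside the lists. Itgb7, an integrin beta chain, was at 249.8, 212 and 239 CPM in M0 and 43.4, 36.7 and 37.8 CPM in M2-like libraries (log2 fold change -2.57 ± 0.13 SE, adjusted p = 1.71e-15). Itgal, the alpha chain of the integrin LFA-1, was at 129, 157 and 171 CPM in M0 and 27.8, 26.5 and 31.7 CPM in M2-like libraries (log2 fold change -2.41 ± 0.12 SE, adjusted p = 1.61e-15). Id3, an inhibitor of helix-loop-helix factors, was at 48.3, 45.8 and 65.3 CPM in M0 and 7.23, 10.3 and 13.8 CPM in M2-like libraries (log2 fold change -2.34 ± 0.25 SE, adjusted p = 1.51e-08). In all 3 genes the highest M2-like library was under the lowest M0 library. Rasgrp4, an activator of Ras, fell by 2.02 on the log2 scale, from a mean of 8.61 to 2.12 CPM. Of 9 tested chemokine receptor genes, 1 was higher and 4 lower (11.1% and 44.4%, against 10.7% and 9.19% of all genes tested, median -0.32). Ccrl2, which binds chemerin, rose by 0.86. Cxcr4, Cxcr3, Cx3cr1 and Ccr7 fell by 0.32, 1.58, 2.45 and 2.69, the last 3 from under 5 CPM. Leaving out 1 library ended the call of Cxcr4 (adjusted p = 0.0544 to 0.187 without M0 replicate 1 or 3 or M2-like replicate 2). The log2 fold change became -2.19 for Cxcr3 without M2-like replicate 3 and -3.14 for Cx3cr1 without M2-like replicate 2.

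Inflammatory and chemokine genes were called in both directions. Of 22 tested inflammatory cytokine and NF-kB target genes, 4 were higher and 4 lower (18.2% each). Over all genes tested, 10.7% were higher and 9.19% lower. The median log2 fold change of the 22 was -0.38, or -0.31 with genes that had 0 reads in a group set at 3 reads per group. Cd86, a co-stimulatory ligand, was at 9.66, 11.0 and 8.25 CPM in M0 and 4.44, 3.87 and 3.44 CPM in M2-like libraries (log2 fold change -1.30 ± 0.16 SE, adjusted p = 3.20e-07). Il1a, the interleukin-1 alpha gene, was at 10.5, 8.25 and 6.34 CPM in M0 and 23.6, 18.9 and 18.2 CPM in M2-like libraries (log2 fold change 1.28 ± 0.20 SE, adjusted p = 2.03e-05). These groups were apart in opposite directions. Ptgs2, the inducible cyclooxygenase (1.71), and the NF-kB-induced genes Tnfaip3 (0.42) and Tnfaip2 (0.37) were higher, and Icam1 (-0.90), Traf1 (-0.60) and Marco were lower, 2 of these 4 without M0 replicate 1. Of 20 tested chemokine genes, 3 were higher and 1 lower (15% and 5%, median 0.01). Ccl9 and Ccl6, which attract leukocytes, rose by 1.42 and 1.29, Ccl3 by 0.50, and Cxcl14 fell by 1.06. Single libraries decided the calls of Ptgs2 (adjusted p = 0.0618 to 0.214 without M0 replicate 2 or 3 or M2-like replicate 2), Icam1 (adjusted p = 0.0846 to 0.128 without M0 replicate 1 or 2 or M2-like replicate 1 or 3) and Traf1 (adjusted p = 0.221 to 0.366 without M0 replicate 1 or M2-like replicate 2).

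The share of genes of central metabolism outside lipids that were called differed by list. Of 24 tested glycolysis and lactate genes, 2 were higher and 6 lower (8.33% and 25%), against 10.7% and 9.19% of all genes tested (median -0.0017). Among them the enolase gene Eno2 was at 0.98 and the lactate exporter gene Slc16a3 at -0.60. Of 24 citrate cycle genes, 2 were higher and 1 lower (8.33% and 4.17%, median 0.06), which is under the shares of all genes tested. The isocitrate dehydrogenase gene Idh1 (0.43) was among the increases and its mitochondrial counterpart Idh2 (-0.24) was the decrease. Of 19 arginine and polyamine genes, only Oat (0.26), an ornithine aminotransferase, was called higher and only Smox (-0.39), a spermine oxidase, lower (5.26% each, median -0.14). Of 8 genes of purine (IMP) synthesis, Adsl (-0.38) and Prps1 (-0.46) were lower (25%) and 0 higher (median -0.15). The 13 mitochondrially encoded genes all had positive log2 fold changes (median 0.30). Of these, 3 (23.1%) were called, mt-Atp6 (0.46), mt-Nd6 (0.45) and mt-Co2 (0.28). Without M0 replicate 1, M0 replicate 3 or M2-like replicate 3, 1 was called. Reads of mitochondrially encoded genes made up 1.47% to 1.6% of the counted reads in M0 and 1.71% to 1.85% in M2-like libraries. The glycolysis list had 3 lower genes without M2-like replicate 1, and 1 higher gene without M0 replicate 2 or 3 or M2-like replicate 1 or 3. The citrate cycle list had 1 higher gene without M0 replicate 1 or M2-like replicate 3. Without 1 of the libraries, edgeR lost the calls of Idh2 (adjusted p = 0.0536 to 0.172 with each of the 6 libraries left out in turn), Oat (adjusted p = 0.0940 without M2-like replicate 3), Smox (adjusted p = 0.0539 to 0.131 without M0 replicate 1 or M2-like replicate 1 or 2), Adsl (adjusted p = 0.0530 to 0.0751 without M0 replicate 1 or M2-like replicate 1), Prps1 (adjusted p = 0.0788 to 0.121 without M0 replicate 2 or M2-like replicate 1 or 2), mt-Nd6 (adjusted p = 0.0572 to 0.120 without M0 replicate 1 or 3 or M2-like replicate 3) and mt-Co2 (adjusted p = 0.0558 to 0.129 with each of the 6 libraries left out in turn).

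Cell cycle genes were called at a share near that of all genes. Of 30 DNA replication and mitosis genes, 3 were higher and 2 lower, against 10.7% and 9.19% of all genes tested (median 0.33), with 1 higher without M0 replicate 2 and 5 higher without M2-like replicate 1 or 3. Ccnb2, Birc5 and Ccna2, which act in mitosis, rose by 1.44, 1.26 and 0.995 from under 2 CPM, and Ccnd1 (cyclin D1, -0.91) and Mcm6, a helicase subunit (-0.38), fell. Omitting a library cost the calls of Birc5 (adjusted p = 0.0590 without M0 replicate 2), Ccna2 (adjusted p = 0.0543 to 0.378 without M0 replicate 2 or 3 or M2-like replicate 2) and Ccnd1 (adjusted p = 0.0511 to 0.0905 without M0 replicate 1 or M2-like replicate 1 or 3).

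Markers of other cells that a peritoneal lavage can hold differed in level. Summed T and NK cell markers reached 2.79 CPM in M0 and 1.998 CPM in M2-like libraries, with Cd3e at 0 reads, and 0 of 3 tested were called. Summed neutrophil markers were at 135 to 167 CPM in M0 and 105 to 116 CPM in M2-like libraries. Among them Ly6g and Retnlg had 0 reads in all 6 libraries. Of 5 tested, Ltf was higher and Csf3r and Mmp8, both also made by macrophages, were lower. Whether these reads came from neutrophils was not tested. Eosinophil (0 of 1 tested called, with Ear6 and Prg2 at 0 reads), mast cell (0 of 5) and B cell markers (0 of 7, summed 22.0 to 69.4 CPM in M0 and 35.1 to 79.4 CPM in M2-like libraries) did not pass the test. Of 4 tested dendritic cell markers, Zbtb46 was higher (0.90) and Ccr7 lower. With a library removed, edgeR no longer made the call of Zbtb46 (adjusted p = 0.0533 to 0.127 with each of the 6 libraries left out in turn).

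Mesothelial and fibroblast markers were highest in a single M2-like library. They summed to 132 to 256 CPM in M0 and 119 to 405 CPM in M2-like libraries, the highest being M2-like replicate 2. Of 9 tested, Krt19 (1.98) and Upk3b (1.61) were called higher, and neither was called without M2-like replicate 2 or without M0 replicate 2. M2-like replicate 2 was also the highest library for Timp3 (5.05, 3.10 and 5.46 CPM in M0 and 3.36, 18.6 and 6.22 CPM in M2-like libraries), an inhibitor of metalloproteinases. The part of these cells in the matrix gene counts was not tested. Leaving out 1 library ended the calls of Krt19 (adjusted p = 0.0551 to 0.128 without M0 replicate 1, 2 or 3 or M2-like replicate 2 or 3) and Upk3b (adjusted p = 0.0685 to 0.193 without M0 replicate 2 or M2-like replicate 2).

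Markers of 2 macrophage origins were read as well. Of 10 tested markers of resident large peritoneal macrophages, Tgfb2 was higher (0.58) and Prg4 and Vsig4 (-0.80) were lower, and the list summed to 187 to 320.4 CPM in M0 and 124 to 206 CPM in M2-like libraries. Prg4, a secreted lubricating proteoglycan, was at 44.7, 62.8 and 24.1 CPM in M0 and 6.51, 21.5 and 3.77 CPM in M2-like libraries (log2 fold change -2.04 ± 0.60 SE, adjusted p = 0.0138). Gata6, the transcription factor that defines resident cells, was at 16.5, 9.86 and 10.2 CPM in M0 and 11.9, 20.9 and 18.6 CPM in M2-like libraries (log2 fold change 0.50, adjusted p = 0.0608). Of 8 tested markers of monocyte-derived and small peritoneal macrophages, 2 were higher, H2-Ab1 and Itgax, which also stand in the MHC class II and complement receptor lists, and 0 lower, with Ccr2 at -0.60 (adjusted p = 0.127). Single libraries decided the calls of Tgfb2 (adjusted p = 0.0642 to 0.166 with each of the 6 libraries left out in turn), Vsig4 (adjusted p = 0.0716 to 0.0729 without M0 replicate 2 or M2-like replicate 3) and Prg4 (adjusted p = 0.0702 to 0.0755 without M0 replicate 2 or M2-like replicate 1 or 3). The log2 fold change became -3.10 for Prg4 without M2-like replicate 2.

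The same contrast was read in mock-treated cells, M2-like mock against M0 mock, 3 libraries each of the same experiment that the untransfected contrast does not use. There 543 of 14172 genes (3.83%) were called, 311 (2.19%) higher and 232 (1.64%) lower. Of the 1517 genes higher in untransfected M2-like cells, 181 were also called higher under mock treatment, 11.9% of the untransfected and 58.2% of the mock list, and 15 were called lower. Of the 1303 lower genes, 96 were also lower under mock treatment, 7.37% and 41.4% of the lists, and 9 were higher. The difference between both contrasts, tested as an interaction, was called for 802 genes (5.66%), 461 (3.25%) with a more positive change in untransfected cells and 341 (2.41%) with a more negative change.

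MHC class II and alternative activation genes changed under both treatments. All 8 class II genes called in untransfected cells were called higher under mock treatment, and 9 of the 11 alternative activation genes were. Chil3 was at 2.17, 2.90 and 2.68 CPM in M0 mock and 950.1, 910.4 and 687 CPM in M2-like mock libraries (log2 fold change 8.34; the difference of untransfected minus mock changes was -1.74, adjusted p = 5.31e-04). The M2-like libraries of both kinds overlapped in level, and the M0 mock libraries held less than the M0 libraries. H2-Aa was at 166, 165 and 166 CPM in M0 mock and 474, 522 and 387 CPM in M2-like mock libraries (log2 fold change 1.48, difference 0.71, adjusted p = 0.0150). Arg1 was at 3.64, 3.12 and 5.23 CPM in M0 mock and 21.9, 44.0 and 8.92 CPM in M2-like mock libraries, where the groups were apart but the adjusted p was 0.0912. Without 1 of the libraries, edgeR lost the call for the difference of H2-Aa (adjusted p = 0.0555 to 0.0682 without M0 replicate 3 or M2-like mock replicate 3).

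The change of many sterol and fatty acid genes differed between the treatments. Of the 26 synthesis genes, 3 were called higher under mock treatment, and the change was larger in untransfected cells for 11 of 26 in the test of the difference. Scd2 was at 189.6, 138 and 274 CPM in M0 mock and 333, 341 and 425 CPM in M2-like mock libraries, so that the M0 mock libraries stood above all M0 libraries while M2-like libraries of both kinds overlapped in level (difference of the log2 fold changes 2.24, adjusted p = 3.28e-05). Fasn showed the same order, with 106, 107 and 144 CPM in M0 mock and 117, 113 and 171 CPM in M2-like mock libraries (difference 1.605, adjusted p = 4.05e-05). Over the 21 synthesis genes called in untransfected cells, the median log2 ratio of M0 mock over M0 was 0.47, and that of M2-like mock over M2-like was -0.06.

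Interferon-stimulated genes had the same direction under mock treatment, without a call. All 30 had a negative log2 fold change there (median -0.40), edgeR called 0, with 15 lower and 0 higher at an unadjusted p under 0.05, and DESeq2 called 1 lower. The difference from the untransfected change was called for 2 of 30. Irf7 was at 149.5, 328 and 598 CPM in M0 mock and 121, 285 and 241 CPM in M2-like mock libraries, and all 6 were above the untransfected libraries.

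**Figure D3:**
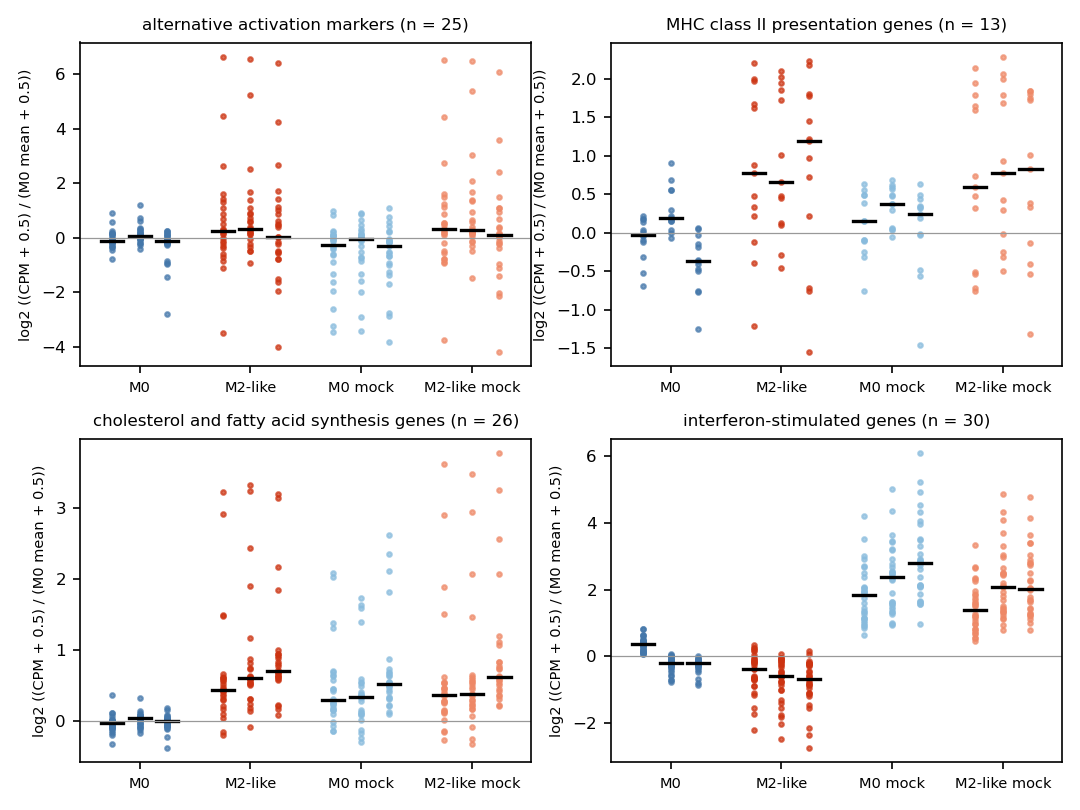
Log2 of each gene's CPM over its mean in M0, after adding 0.5 to both, for the tested members of 4 lists (points) in 12 libraries, 3 each of M0, M2-like, M0 mock and M2-like mock, with library medians as black lines. The synthesis genes of M0 mock lie above those of M0 (medians 0.30, 0.35 and 0.53), the class II genes are highest in both M2-like groups, and the interferon-stimulated genes of both mock groups lie far above the untransfected ones (medians 1.83, 2.37 and 2.79 in M0 mock and 1.40, 2.09 and 2.03 in M2-like mock).

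Several of the largest decreases were not called or had the opposite sign under mock treatment. Marco was at 1.26, 2.31 and 5.68 CPM in M0 mock and 7.94, 11.6 and 6.90 CPM in M2-like mock libraries, against 58.1 ± 17.3 CPM (SD, n = 3) in M0 and 6.99 ± 2.43 CPM (SD, n = 3) in M2-like libraries (difference -4.56, adjusted p = 3.62e-04). Pf4, the platelet factor 4 chemokine, was lower in M2-like cells without transfection (-1.20) and higher with mock treatment (1.25, adjusted p = 2.54e-04). Serpinb1a, an inhibitor of neutrophil proteases, also had opposite signs (-1.80 and 0.86), and both of its changes were called. For Pf4 and Serpinb1a the M0 mock libraries were the lowest of the 4 groups, with Pf4 at 9.46, 10.7 and 12.9 CPM there and 61.3, 49.5 and 54.7 CPM in M0. Omitting a library cost the call under mock treatment of Serpinb1a (adjusted p = 0.0597 to 0.194 without M0 mock replicate 2 or 3 or M2-like mock replicate 2). The log2 fold change difference became -5.30 for Marco without M0 mock replicate 3.

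A separate experiment of the series read the same polarization at 24 h, in single-end 50 nt libraries of 3 mice, M0 and M2-like from each, with 2 technical replicates that were summed. It called 4499 of 16110 genes (27.9%), 2176 (13.5%) higher and 2323 (14.4%) lower. Of the genes higher in untransfected M2-like cells, 377 were also higher at 24 h, 26.1% of the untransfected and 19.1% of the 24 h list when both are limited to the 13648 genes tested in both experiments, while 228 were lower at 24 h. Of the genes lower in untransfected M2-like cells, 440 were also lower at 24 h, 33.8% and 19.4% of the lists limited in the same way, and 103 were higher. The test of the difference called 2718 of 15835 genes (17.2%), 1345 (8.49%) with a more positive and 1373 (8.67%) with a more negative change in untransfected cells. Read type and sequencing site differ between the experiments. Cell preparation, harvest time and IL-4 presence may differ too, and the parts of all these cannot be told apart.

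Most alternative activation genes were higher at 24 h. At 24 h 24 of 28 were higher and 1 lower, against 11 of 25 and 0 in untransfected cells, and the difference was called for 14 of 28, all 14 with the more negative change in untransfected cells. Arg1 was at 6.48, 3.45 and 6.62 CPM in M0 and 524, 414 and 474 CPM in M2-like cells at 24 h (log2 fold change 6.42), and the difference from the untransfected contrast was -6.76 (adjusted p = 3.78e-06). Irf4 was at 5.26, 5.41 and 4.47 CPM in M0 and 50.3, 45.6 and 42.6 CPM in M2-like cells at 24 h (difference -3.15, adjusted p = 2.45e-11). Retnla differed the other way without passing the test, with 3.31 at 24 h and 4.78 in untransfected cells (difference 1.45, adjusted p = 0.129). Mrc1 changed by 1.61 at 24 h (difference -0.38, adjusted p = 0.182). The feedback inhibitor gene Cish was higher in both, by 6.63 at 24 h and 2.53 in untransfected cells (difference -4.07, adjusted p = 0.00806). Its untransfected levels were under 1 CPM. With a library removed, edgeR no longer made the call for the difference from 24 h of Cish (adjusted p = 0.103 without M0 replicate 3). The log2 fold change difference from 24 h became -5.92 for Arg1 without M0 replicate 1 and -7.92 for Arg1 without M2-like replicate 2.

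**Figure D4:**
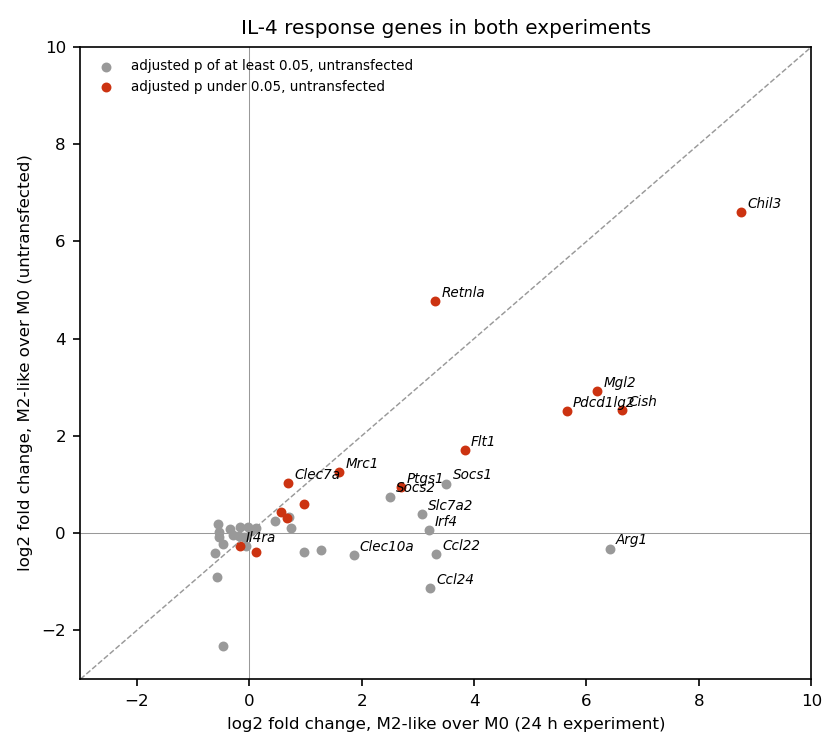
Log2 fold change of M2-like over M0 in untransfected cells (vertical axis) against that in the 24 h experiment (horizontal axis) for 43 genes of alternative activation and of the IL-4 receptor, JAK-STAT and SOCS list, with the 14 called in untransfected cells in red and equal changes along the dashed line. Chil3, Mgl2, Pdcd1lg2 and Cish lie below the line, Retnla above it, and Arg1 at 6.42 and -0.32.

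Few lipid synthesis genes were higher at 24 h. The difference from 24 h was called for 20 of 26, all 20 with the more positive change in untransfected cells. Of 25 tested at 24 h, 2 were higher and 9 lower, and 7 of the genes called higher in untransfected cells were called lower at 24 h. Scd1 was at 3.42, 3.04 and 2.87 CPM in M0 and 5.07, 3.32 and 3.35 CPM in M2-like cells at 24 h (difference 2.99, adjusted p = 2.87e-08), and Fasn at 17.3, 16.6 and 17.4 CPM and 8.31, 9.90 and 10.8 CPM (difference 2.56, adjusted p = 2.39e-10). MHC class II genes were higher in both experiments, 9 of 13 at 24 h, with all 8 genes of the untransfected contrast among them. Tfrc rose by 2.01 at 24 h and by 1.90 in untransfected cells (difference -0.13, adjusted p = 0.580), and Itgal was lower in both, at -0.995 and -2.41 (difference -1.44, adjusted p = 2.85e-08).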

How the data were processed

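The members and gene lists were chosen with earlier results of these data known. The authors deposited counts per gene, from reads trimmed with Trimmomatic, aligned with TopHat2 to mm10 and counted with featureCounts; their versions, strand setting and handling of multiply mapped reads are not given in the sources used here. The files hold 39179 genes, 37607 with a symbol. Counts were fitted with edgeR 4.0.16 (R 4.3.3, TMM, quasi-likelihood, 2-sided, Benjamini-Hochberg over all genes tested) across all 36 reprogramming libraries, which share 1 spread, after filterByExpr with a minimum count of 10 and a minimum total of 15. The 24 h experiment was fitted separately, and jointly for the difference. Alternatives were DESeq2 1.42.0, RLE size factors, other filters, only the compared groups, a replicate block and each library left out. The fit was tested on simulated data. Named genes were those with no overlap of groups, an adjusted p under 0.05 and the largest changes, up to 2 per direction in each list at a mean of at least 1 CPM and 10 per direction over all genes at a mean log2 CPM of at least 2, the 5 largest per direction in each test of a difference, the siRNA targets and Chil3, Retnla, Arg1 and Mrc1. Other members and genes were named after their values were seen. Values of some list members are not reported here. Promoters come from RefSeq. Precision rests on 13582919 to 16365521 reads per library and 3 libraries per group.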

Additional observations from a re-analysis of the deposited data

Results flagged for a closer look

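The change of M2-like over M0 differed between untransfected and mock-treated cells for 802 genes in the test of the difference itself. Differences are the untransfected minus the mock log2 fold change. Among well-expressed genes, the most positive were those of Gpr162, an orphan receptor gene (2.30), Mgll (2.27), Scd2 (2.24), Rapgef3, an exchange factor that responds to cyclic AMP (2.04), and Fads2 (2.02). Mgll changed by 2.43 without transfection and by 0.16 with mock treatment, and Gpr162 by 0.56 and -1.74. The most negative were those of Marco (-4.56), Prg4 (-3.35), Cox6a2, a subunit of cytochrome c oxidase (-3.32), Serpinb1a (-2.66) and Pf4 (-2.45). All 5 had a negative change without transfection and a positive one with mock treatment, -2.04 and 1.31 for Prg4 and -1.98 and 1.35 for Cox6a2. The difference of Prg4 was no longer called without M0 replicate 2, M2-like replicate 1 or 3, M0 mock replicate 2 or M2-like mock replicate 2 (adjusted p of edgeR 0.0504 to 0.121) and was -4.41 without M2-like replicate 2, and that of Cox6a2 was not called without M2-like mock replicate 1 (0.0571). That of Marco was -5.30 without M0 mock replicate 3.

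The change also differed between untransfected cells and the 24 h experiment for 2718 genes. Among well-expressed genes the most positive differences were those of Cdkn1c, an inhibitor of cyclin-dependent kinases (3.30), Mgll (3.10), Scd1 (2.99), Fcgr4 (2.71) and Gpx3, a secreted glutathione peroxidase (2.66). Cdkn1c, Mgll, Fcgr4 and Gpx3 had a negative change at 24 h, -1.88, -0.69, -0.85 and -1.41. The most negative differences were those of Arg1 (-6.76), Car6, a secreted carbonic anhydrase (-4.39), Tmem26 (-3.68), Mmp13, a collagenase (-3.60), and Gm4707 (-3.57), which did not pass the filter on low counts of the reprogramming experiment. Tmem26 rose by 4.77 at 24 h and by 1.11 in untransfected cells, and Mmp13 changed by 3.89 and 0.31. The difference of Arg1 was -5.92 without M0 replicate 1 and -7.92 without M2-like replicate 2, and that of Car6 was -5.50 without M2-like replicate 2. The difference of Gm4707 was not called without M0 replicate 2 or M2-like replicate 1 or 3 (adjusted p of edgeR 0.0954 to 0.206), and was -5.85 without M2-like replicate 2.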

How the results depend on the processing

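The 2820 genes called between untransfected M2-like and M0 cells numbered 2848 with DESeq2, 2791 with RLE size factors, 2827 without the filter, 2785 at a mean of at least 1 CPM and 2581 in a fit of only the compared groups. Requiring a 2-fold change left 514 genes, and in the other comparisons 80 under mock treatment, 562 at 24 h, 212 for the difference from mock and 613 for the difference from 24 h. Leaving out 1 library gave 1990 to 2525 calls in untransfected cells, 247 to 656 under mock treatment, 2951 to 4655 at 24 h, 547 to 913 for the difference from mock and 2129 to 2528 for that from 24 h. The lowest mock counts were 283 without M0 mock replicate 2, 255 without M2-like mock replicate 1 and 247 without M2-like mock replicate 2, against 543, and the 2951 was without M0 replicate 2 at 24 h. In a fit of only the compared groups the mock contrast called 111 genes, 70.3% of them higher against 57.3%, and the difference from mock 495. Technical replicates of the 24 h experiment taken as separate samples gave 7198 calls. Arg1 turned to 0.51 without M0 replicate 1 and 0.11 without M2-like replicate 3, over a range that began at -1.49 (without M2-like replicate 2). Of 101 named genes, 95 were called, and Idh2, Myc, Tgfb2 and Zbtb46 lost their call with each of the 6 libraries left out in turn.

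With the replicate number as a block, 3371 genes were called in untransfected and 900 in mock-treated cells. The numbers were not taken to pair the libraries: same-numbered M0 and M2-like libraries deviated together with r = -0.0014, 0.068 and 0.166 across genes in untransfected and 0.395, -0.16 and -0.0028 in mock-treated cells. At 24 h the numbers are mice (r = 0.205, 0.46 and 0.0156), and the block gave 4410 calls against 4499. With 3 libraries per group, genes with few reads were the least precise.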

Other observations

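Some genes outside the lists, chosen after their values were seen, were called in untransfected cells. Ear2, a ribonuclease of the eosinophil-associated family with close copies, rose from a mean of 0.664 ± 0.429 to 12.9 ± 2.27 CPM (SD, n = 3 libraries each, log2 fold change 4.24) and by 7.10 under mock treatment. Trf, the iron carrier transferrin, rose from 23.6 ± 2.02 to 93.2 ± 17.6 CPM (1.98) and by 1.15 under mock treatment. Lat, an adaptor known from T cell receptor signalling, rose from 10.5 ± 1.91 to 45.1 ± 4.04 CPM (2.11), while its change under mock treatment was 0.21 (adjusted p of edgeR = 0.582). Slamf8, a surface receptor of myeloid cells, rose from 58.0 ± 4.86 to 184 ± 23.5 CPM (1.66) and differed from its mock change of -0.09 by 1.75 in the test of the difference. Dio2, which activates thyroid hormone, rose by 1.24 and the growth factor gene Gdf15 by 1.11.

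Among decreases of the same kind, Fabp7, a lipid chaperone, went from 68.5 ± 18.1 to 17.8 ± 2.32 CPM (-1.94), with a mock change of 0.35. Lsp1, an actin-binding protein of leukocytes, went from 197 ± 39.5 to 54.5 ± 12.4 CPM (-1.86), and Alox5ap, which hands arachidonate to 5-lipoxygenase, from 300.5 ± 4.72 to 140.5 ± 8.13 CPM (-1.10). Tlr2, a receptor for bacterial lipoproteins, changed by -0.97 without and -0.90 with mock treatment, and Npy, the neuropeptide Y gene, by -0.97 and -0.56.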
